A study of Rattus with 6 samples.

Results

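The machinery that carries proteins into mitochondria was described in cultures given a control siRNA or an siRNA against CDCP1. Its genes were taken from the deposited expression table by name: protein-coding genes called Tomm or Timm followed by a digit, and Timmdc1, Pam16, Dnajc15, Dnajc19, Hspa9, Grpel1, Samm50, Mtx1, Mtx2, Chchd4 and Gfer. This gave 36 of the 54012 genes in the table. Both groups were primary cultures from aorta labelled as vascular smooth muscle cells, which make up the contractile middle layer of arteries, and both received Ang II (angiotensin II), a peptide of the renin-angiotensin system that raises blood pressure. The si-NC group (3 libraries, genotype label WT) had the control siRNA and the si-CDCP1 group (3 libraries, genotype label CDCP1 knockdown) the siRNA against CDCP1, a transmembrane glycoprotein that Src family kinases phosphorylate, with Ang II given after the knockdown. The series title sets the question, which is the place of CDCP1 in carotid artery stenosis and in the autophagy of mitochondria. No library came from a culture without Ang II. The organism label is rat while the table holds mouse gene identifiers on the mouse build mm10, so the names below are mouse names, of which 35 are also rat RefSeq symbols (assembly GRCr8) and the other one, Tomm70a, a listed synonym.

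Nearly all mitochondrial proteins are made in the cytosol and imported. The translocase of the outer membrane (TOM) recognises precursors and lets them through. Proteins with an N-terminal presequence go on through the TIM23 channel of the inner membrane, pulled in by a motor around the matrix chaperone mortalin, while carrier proteins are escorted across the intermembrane space by small TIM chaperones to the TIM22 channel. Barrel proteins of the outer membrane are inserted by the sorting and assembly machinery (SAM), and small cysteine-rich proteins are trapped in the intermembrane space by a disulfide relay. When import fails, PINK1 stays on the TOM complex and marks the mitochondrion for autophagy, which ties this machinery to the theme of the series.

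Expression is given as FPKM, a measure that divides fragments by the length of the gene and the depth of the library. Reads in the genes of the table numbered 16050517 to 19771638 per library. The siRNA target could not serve as a check of the labels, since Cdcp1 was near 0 throughout, with 2, 2 and 1 reads in si-NC replicates 1, 2 and 3 and with 0, 5 and 0 in the si-CDCP1 replicates. Of 12 smooth muscle markers 3 (Acta2, Cald1 and Smtn) reached a mean of 1 FPKM, while Myh11, Tagln and Cnn1, which define contractile smooth muscle, had 0 to 7 reads per library. The smooth muscle markers summed to between 62.3 and 67.8 FPKM in si-NC and between 62.2 and 95.4 FPKM in si-CDCP1. The highest sum was that of si-CDCP1 replicate 3, where Acta2 was at 64.2 FPKM, against 42.0 and 34.4 FPKM in si-CDCP1 replicates 1 and 2. Mylk, which averaged below 1 FPKM, was lower in every si-CDCP1 library (0.701 to 0.863 against 0.334 to 0.580 FPKM). The other smooth muscle markers overlapped between the groups. The fibroblast markers, 3 of 6 of them at 1 FPKM or more, summed to between 277 and 310.4 FPKM and between 275 and 310.1 FPKM, with Lum at 0 in 5 libraries. Nearly all of that sum was Col1a1, while Pdgfra was lower in every si-CDCP1 library, at 9.97, 10.5 and 10.6 FPKM in si-NC replicates 1, 2 and 3 and 9.49, 8.98 and 7.59 FPKM in the si-CDCP1 replicates. The 6 endothelial markers summed to at most 1.05 FPKM with Cdh5 at 0 in every library, the 6 epithelial ones to at most 0.218 FPKM, and the leukocyte markers to at most 3.25 FPKM, with 2 above 1 FPKM: Lyz2, higher in every si-CDCP1 library (1.58 to 1.74 against 1.95 to 2.37 FPKM), and Cd68, lower in every one (1.22 to 1.31 against 0.714 to 0.879 FPKM). In limma over all genes Pdgfra, Lyz2 and Cd68 had BH-adjusted p of 0.316, 0.340 and 0.298. The part of these markers in the results below was not tested. The si-CDCP1 replicate 3 library stood apart: over log2 values its Pearson correlation was 0.979 to 0.983 with the other 5 libraries, which had 0.988 to 0.991 with each other. Values without it are therefore given beside the results.

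Most import genes averaged higher in the si-CDCP1 than in the si-NC cultures by a small amount, and no single gene passed the test over all genes. Of the 36 genes, 33 averaged 1 FPKM or more across the 6 libraries and were tested. Their log2(FPKM + 1) differences, si-CDCP1 minus si-NC, were positive in 30 of 33 and had a median of 0.16, against a median of 0.0077 and 52.3% positive among all 12080 genes tested. In limma, a moderated test fitted to the whole table, 0 of 33 reached a Benjamini-Hochberg (BH) adjusted p of 0.05, where 0.0% of all genes did in either direction. At an unadjusted p under 0.05 the members numbered 16 on the higher side, where the background is 8.94% of all genes, and 0 on the lower side, where it is 5.31%. The 3 si-CDCP1 libraries all lay above the 3 si-NC libraries for 17 of 33 genes, against 14.4% of all genes, and all below for 1 gene, Tomm34, against 10.6%. Differences of low genes are understated on this scale, and in bulk samples fewer cells of a type and less RNA per cell cannot be told apart.

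As a group the import genes were above their means in each of the 3 si-CDCP1 libraries and below them in each of the 3 si-NC libraries. Taking each gene's deviation from its own mean over the 6 libraries, the median over the 33 genes was -0.069, -0.096 and -0.073 in si-NC replicates 1, 2 and 3 and 0.055, 0.045 and 0.11 in si-CDCP1 replicates 1, 2 and 3 on the log2 scale. The same medians over all tested genes lay between -0.0069 and 0.0070. The si-CDCP1 replicate 3 library was above all 5 others for 16 of the 33 genes, against 34.0% of all genes. Without it the median difference was 0.15, again with 30 of 33 positive where 52.2% of all genes were, and the 2 remaining si-CDCP1 libraries lay above all si-NC libraries for 21 genes, where 19.9% of all genes did so.

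**Figure D1:**
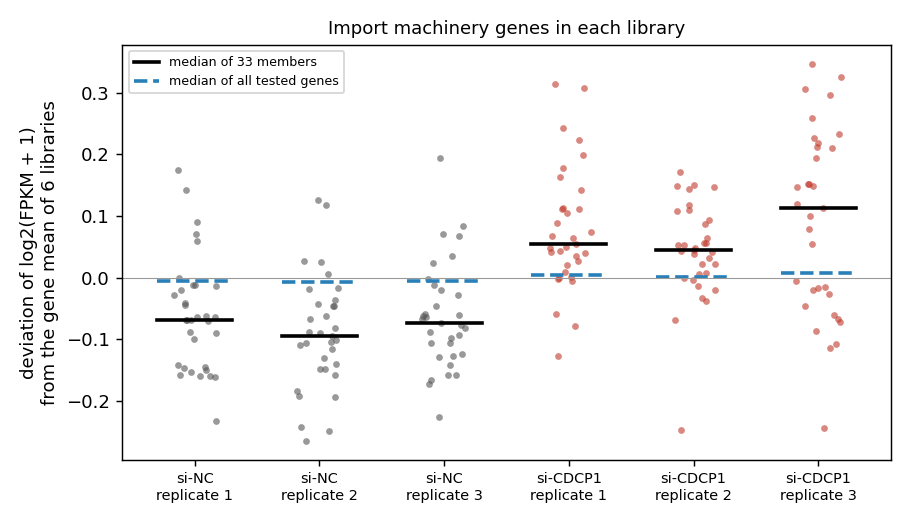
Deviation of log2(FPKM + 1) from each gene's mean over the 6 libraries (vertical axis) for the 33 tested import genes (points), by library; black lines are the medians of these genes and dashed blue lines those of all 12080 tested genes. The si-NC medians lie between -0.096 and -0.069 and the si-CDCP1 medians between 0.045 and 0.11, while the all-gene medians stay near 0.

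The number of import genes called differed with the weight given to each library. With limma's library weights, which count a more variable library for less, 9 of 33 import genes rose at a BH-adjusted p under 0.05 (Tomm70a, Tomm5, Timm8a1, Timm8b, Timm10, Timm29, Grpel1, Timm9 and Timmdc1) and 0 fell, where 4.62% of all genes rose and 2.54% fell. The weights ran from 0.165 for si-CDCP1 replicate 3 and 0.600 for si-CDCP1 replicate 1 to 5.11 for si-CDCP1 replicate 2. The si-CDCP1 side of every call with library weights therefore rested mainly on si-CDCP1 replicate 2. Limma voom on the reads recovered from the FPKM called 0 members with all libraries, where 0.0% of genes rose and 0.0348% fell, and 2 (Timm8b and Timm10) rose without si-CDCP1 replicate 3, where 2.4% of genes rose and 1.06% fell. These fits share libraries and are not independent of each other.

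Levels spanned a wide range. Mortalin was far above the rest, at a mean of 436 FPKM over the 6 libraries, and the next gene, Tomm22, averaged 55.2 FPKM. The median of the 33 tested genes was 17.4 FPKM, against 8.99 FPKM over all genes tested. By role the medians were 36.4 FPKM for the small TIM chaperones, 30.8 for TOM, 18.6 for TIM22, 15.3 for the disulfide relay, 14.5 for the motor, 12.2 for SAM and 10.8 for TIM23. These levels are per length, but rows that share reads with copies or overlapping genes are uncertain, as given below. With a rat label and a mouse build, levels compared between genes may also depend on how well reads matched, which was not tested. Of the 36 genes, 3 were below the filter: Tomm6, a small stabilising subunit of the TOM complex, had 3, 0, 3 reads against 4, 3, 3, the TOMM20-like gene Tomm20l 0, 1, 2 reads against 3, 0, 5, and the TIM8A copy Timm8a2 0, 1, 0 reads against 0, 0, 0. These are at or near the floor of 3 reads, and no fold is given for them.

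**Figure D2:**
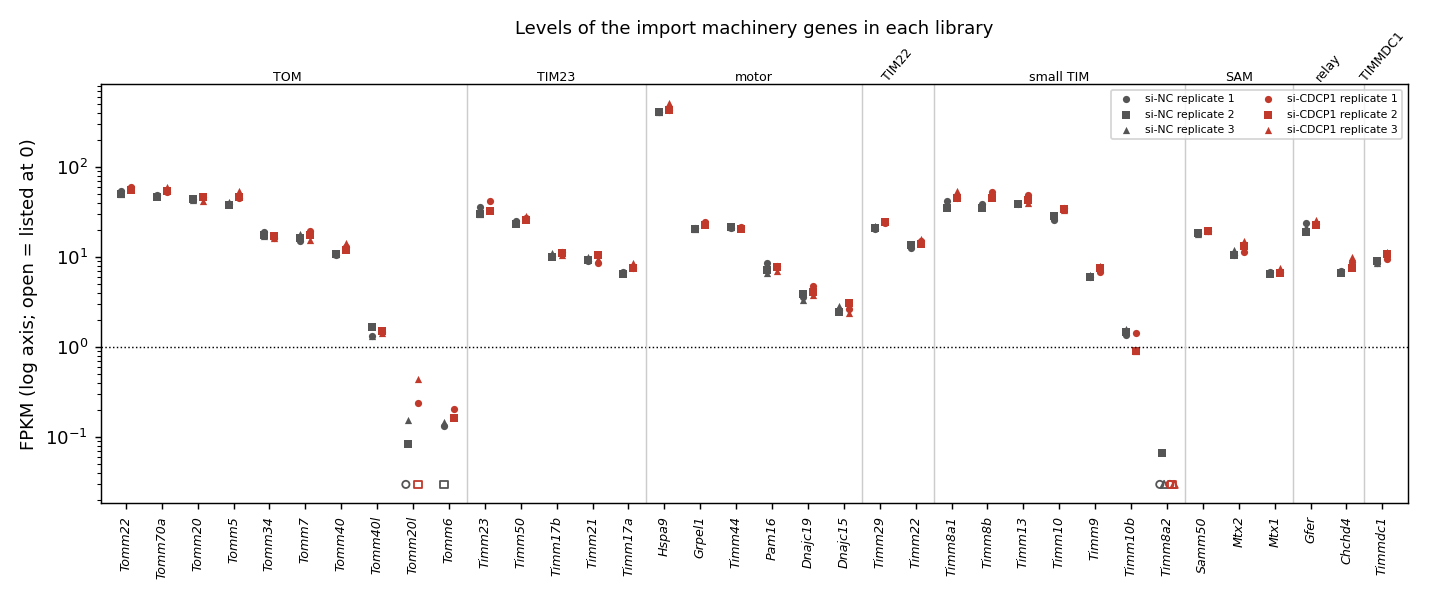
FPKM on a log axis (vertical) of the 36 import genes (horizontal, grouped by role and ordered by level), with si-NC libraries in grey and si-CDCP1 libraries in red, 1 symbol per replicate; open symbols are libraries where the gene is listed at 0, and the dotted line is the filter of 1 FPKM. Hspa9 stands highest at a mean of 436 FPKM, and Tomm20l, Tomm6 and Timm8a2 lie below the filter.

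In the TOM complex the receptors Tomm22 and Tomm70a, the pore gene Tomm40 and the small subunit Tomm5 had every si-CDCP1 value above every si-NC value, whereas the receptor Tomm20 overlapped with all libraries and did not without si-CDCP1 replicate 3. Groups lay apart on the higher side for 14.4% of all genes. Of 8 tested genes of the outer membrane group 7 had positive differences (median 0.12), where 52.3% of all genes did. In limma 4 of the 8 had an unadjusted p under 0.05 on the higher side, against 8.94% of all genes, and 0 passed over all genes. Tomm22, the central receptor that organises the complex (ENSMUSG00000022427, mm10 chromosome 15, 79670861 to 79673400, plus strand), was at 54.6, 50.7 and 51.1 FPKM in si-NC replicates 1, 2 and 3 and 59.6, 55.9 and 59.1 FPKM in si-CDCP1 replicates 1, 2 and 3. The lowest si-CDCP1 library stood 1.29 FPKM above the highest si-NC one, with a log2 difference of 0.16 (SE 0.052) and a limma BH-adjusted p of 0.305. Tomm70a, the receptor that takes carrier precursors from cytosolic chaperones (ENSMUSG00000022752, mm10 chromosome 16, 57121714 to 57154530, plus strand), was at 49.5, 46.6 and 48.0 FPKM in the si-NC libraries and 53.1, 53.8 and 60.8 FPKM in the si-CDCP1 libraries. Its groups did not overlap, and the log2 difference of 0.21 (SE 0.064) went to 0.15 without si-CDCP1 replicate 3, the highest library. Tomm40, the barrel that forms the pore (ENSMUSG00000002984, mm10 chromosome 7, 19701313 to 19715438, minus strand), was at 10.6, 11.0 and 10.9 FPKM in the si-NC libraries and 13.0, 12.1 and 14.5 FPKM in the si-CDCP1 libraries. Its si-NC libraries lay within 0.405 FPKM of each other and below all si-CDCP1 libraries, with a log2 difference of 0.26 (SE 0.070) and a limma BH-adjusted p of 0.267.

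Tomm5, a small subunit bound to the pore (ENSMUSG00000078713, mm10 chromosome 4, 45105208 to 45108114, minus strand), was at 39.2, 38.4 and 41.5 FPKM in the si-NC libraries and 45.2, 46.8 and 54.6 FPKM in the si-CDCP1 libraries. This was the largest difference of the group at 0.29 (SE 0.078), with the groups apart and si-CDCP1 replicate 3 highest. Tomm20, the receptor that binds presequences (ENSMUSG00000093904, mm10 chromosome 8, 126930667 to 126945844, minus strand), was at 44.7, 44.1 and 43.8 FPKM in the si-NC libraries and 46.2, 46.8 and 42.6 FPKM in the si-CDCP1 libraries. Here si-CDCP1 replicate 3 was the lowest of the 6 libraries, and the other two lay above all si-NC libraries. The log2 difference of 0.030 (SE 0.051), with a 95% interval of -0.091 to 0.15, was 0.072 without that library and turned negative with equal FPKM sums (-0.023) and with quantile normalisation (-0.033). Tomm7, a small subunit that helps keep PINK1 at the outer membrane, averaged 16.6 ± 1.36 against 17.6 ± 2.03 FPKM (SD, n = 3 each), and the pore paralog Tomm40l 1.45 ± 0.190 against 1.48 ± 0.0484 FPKM. Both overlapped between the groups, and without si-CDCP1 replicate 3 their differences went from 0.084 to 0.16 and from 0.016 to 0.028. Tomm34, a cytosolic cochaperone of precursors rather than a subunit of the complex, averaged 18.1 ± 1.03 against 16.7 ± 0.442 FPKM and was the only tested import gene whose si-CDCP1 libraries all lay below the si-NC ones. Its log2 difference was -0.11 (SE 0.057), with a limma BH-adjusted p of 0.402.

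All 5 genes of the presequence translocase had positive differences, with a median of 0.15, where 52.3% of all genes were positive. Groups did not overlap for 2 of the 5, Timm17a and Timm50, against 14.4% of all genes on the higher side. None of the 5 passed the limma test over all genes. Timm17a, one of a pair of channel subunits (ENSMUSG00000062580, mm10 chromosome 1, 135295213 to 135313778, minus strand), was at 6.92, 6.50 and 6.79 FPKM in the si-NC libraries and 7.59, 7.57 and 8.67 FPKM in the si-CDCP1 libraries. Its si-CDCP1 libraries were all above the si-NC ones, with si-CDCP1 replicate 3 highest, at a log2 difference of 0.21 (SE 0.067). Timm50, the receptor that receives precursors from TOM (ENSMUSG00000003438, mm10 chromosome 7, 28305516 to 28312072, minus strand), was at 25.4, 23.6 and 24.8 FPKM in the si-NC libraries and 27.3, 25.8 and 28.8 FPKM in the si-CDCP1 libraries. The gap between the groups was 0.440 FPKM, and the log2 difference was 0.15 (SE 0.058). Timm17b, the paralog of Timm17a, was at 10.3, 10.1 and 11.1 FPKM in the si-NC libraries and 11.5, 11.2 and 10.7 FPKM in the si-CDCP1 libraries. These overlapped, as did those of Timm23, the channel subunit itself, at 36.2, 30.3 and 30.3 FPKM in the si-NC libraries and 42.5, 32.3 and 33.5 FPKM in the si-CDCP1 libraries. For Timm23 the highest si-NC library, replicate 1, exceeded si-CDCP1 replicates 2 and 3, and the 95% interval of its difference ran from -0.13 to 0.43. Without si-CDCP1 replicate 3 the differences went from 0.21 to 0.15 for Timm17a and from 0.15 to 0.11 for Timm50. Those of Timm17b and Timm23 went from 0.076 to 0.10 and from 0.15 to 0.20, and the groups of Timm17b then no longer overlapped. Timm21, which links the channel to the respiratory chain, averaged 9.51 ± 0.575 against 9.61 ± 1.02 FPKM (SD, n = 3 each), with a difference of 0.011 that changed sign under 7 of the 21 other settings.

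Of the 6 genes of the import motor 5 had positive differences (median 0.096), where 52.3% of all genes did. Groups did not overlap for 2 of the 6 (Hspa9 and Grpel1), against 14.4% of all genes on the higher side, and 0 passed the limma test over all genes. Hspa9, which encodes mortalin, the matrix chaperone that drives the motor, was at 414, 409 and 412 FPKM in si-NC replicates 1, 2 and 3 and 434, 438 and 512 FPKM in si-CDCP1 replicates 1, 2 and 3. The si-NC libraries were close together and all si-CDCP1 libraries lay above them, but si-CDCP1 replicate 3 was far above the other two. The log2 difference of 0.16 (SE 0.071) went to 0.083 without that library. Grpel1, the nucleotide exchange factor of mortalin (ENSMUSG00000029198, mm10 chromosome 5, 36464998 to 36474080, plus strand), was at 21.0, 20.5 and 20.6 FPKM in the si-NC libraries and 24.5, 23.0 and 23.4 FPKM in the si-CDCP1 libraries. Its groups were 1.95 FPKM apart with no single library leading, the log2 difference was 0.18 (SE 0.047), and without si-CDCP1 replicate 3 it was 0.19 (limma BH-adjusted p = 0.267 with all 6 libraries).

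Timm44, the scaffold that tethers mortalin to the channel (ENSMUSG00000002949, mm10 chromosome 8, 4259731 to 4275913, minus strand), was at 21.2, 21.8 and 21.8 FPKM in the si-NC libraries and 21.8, 20.8 and 21.0 FPKM in the si-CDCP1 libraries. The groups overlapped, and the log2 difference of -0.026 (SE 0.046) had a 95% interval of -0.13 to 0.082. Among the J-domain and J-like proteins that regulate mortalin, Pam16 averaged 7.48 ± 1.01 against 7.56 ± 0.489 FPKM, Dnajc19 3.66 ± 0.279 against 4.24 ± 0.542 FPKM and Dnajc15 2.64 ± 0.206 against 2.73 ± 0.331 FPKM (SD, n = 3 each). All 3 overlapped between the groups, and the differences of Pam16 and Dnajc15 changed sign under other settings. Without si-CDCP1 replicate 3 they went from 0.019 to 0.068 and from 0.033 to 0.094. That of Dnajc19 went from 0.17 to 0.23, and its remaining si-CDCP1 libraries lay above all si-NC libraries.

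The small TIM chaperones had the largest median difference of the roles with more than 1 gene. Of 6 tested genes 5 had positive differences, where 52.3% of all genes did, and the median was 0.28 (0.23 without si-CDCP1 replicate 3). Groups did not overlap for 4 of the 6, against 14.4% of all genes on the higher side, and 0 passed the limma test over all genes. The exception in sign was Timm10b. Timm10, which forms a hexamer with TIMM9 that shields hydrophobic carrier precursors (ENSMUSG00000027076, mm10 chromosome 2, 84826997 to 84830213, plus strand), was at 26.0, 28.6 and 28.1 FPKM in si-NC replicates 1, 2 and 3 and 34.9, 34.8 and 33.3 FPKM in si-CDCP1 replicates 1, 2 and 3. The gap between the highest si-NC and the lowest si-CDCP1 library, 4.74 FPKM, was larger than the range of the si-NC libraries, 2.58 FPKM. The log2 difference of 0.31 (SE 0.053) was the one with the smallest p among the import genes (limma BH-adjusted p = 0.238, and between 0.0184 and 0.643 over the other settings), and without si-CDCP1 replicate 3 it was 0.33. Timm9, its partner (ENSMUSG00000021079, mm10 chromosome 12, 71123173 to 71136684, minus strand), was at 6.02, 6.04 and 6.31 FPKM in the si-NC libraries and 6.88, 7.58 and 7.99 FPKM in the si-CDCP1 libraries. These groups did not overlap either, at a level several times below that of Timm10, with a log2 difference of 0.25 (SE 0.066).

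Timm8b, whose product belongs to the TIM8 and TIM13 type of chaperone (ENSMUSG00000039016, mm10 chromosome 9, 50603910 to 50605320, plus strand), was at 39.3, 35.5 and 36.0 FPKM in the si-NC libraries and 52.5, 45.6 and 47.0 FPKM in the si-CDCP1 libraries. It had the largest log2 difference of all 33 genes, 0.38 (SE 0.070), with the groups 6.29 FPKM apart and si-CDCP1 replicate 1 highest (limma BH-adjusted p = 0.238, and between 0.0244 and 0.643 over the other settings). Timm8a1, the mouse counterpart of the gene mutated in deafness-dystonia syndrome (ENSMUSG00000048007, mm10 chromosome X, 134537256 to 134541865, minus strand), was at 41.7, 35.6 and 38.1 FPKM in the si-NC libraries and 45.0, 46.0 and 54.2 FPKM in the si-CDCP1 libraries. Its groups were apart, with si-CDCP1 replicate 3 highest, and the log2 difference of 0.32 (SE 0.089) went to 0.24 without that library. Timm13, the partner of the TIM8 proteins, averaged 39.5 ± 0.652 against 44.0 ± 4.50 FPKM (SD, n = 3 each); its si-CDCP1 replicate 3 library lay among the si-NC libraries while the other two were above them, and without it the difference went from 0.15 to 0.21. Timm10b, a small TIM bound to the TIM22 channel, averaged 1.48 ± 0.115 against 1.09 ± 0.312 FPKM on 98, 86, 102 reads against 90, 53, 51, with si-CDCP1 replicate 1 among the si-NC libraries and the others below, at a log2 difference of -0.25 (SE 0.13).

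Both genes of the carrier translocase proper were higher in every si-CDCP1 library than in any si-NC library, as 14.4% of all genes were. Timm22, the channel for carrier proteins (ENSMUSG00000020843, mm10 chromosome 11, 76406952 to 76416292, plus strand), was at 12.7, 13.7 and 13.5 FPKM in the si-NC libraries and 15.3, 14.1 and 15.8 FPKM in the si-CDCP1 libraries. Its groups came within 0.467 FPKM of each other, with a log2 difference of 0.17 (SE 0.061). Timm29, a subunit that stabilises TIM22 (ENSMUSG00000048429, mm10 chromosome 9, 21592722 to 21595970, plus strand), was at 20.7, 21.3 and 22.0 FPKM in the si-NC libraries and 23.9, 24.9 and 25.6 FPKM in the si-CDCP1 libraries. The gap there was 1.91 FPKM, above the si-NC range of 1.34 FPKM, with a log2 difference of 0.21 (SE 0.050) and a limma BH-adjusted p of 0.267. Neither passed in limma over all genes, and without si-CDCP1 replicate 3 the differences were 0.14 and 0.19.

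**Figure D3:**
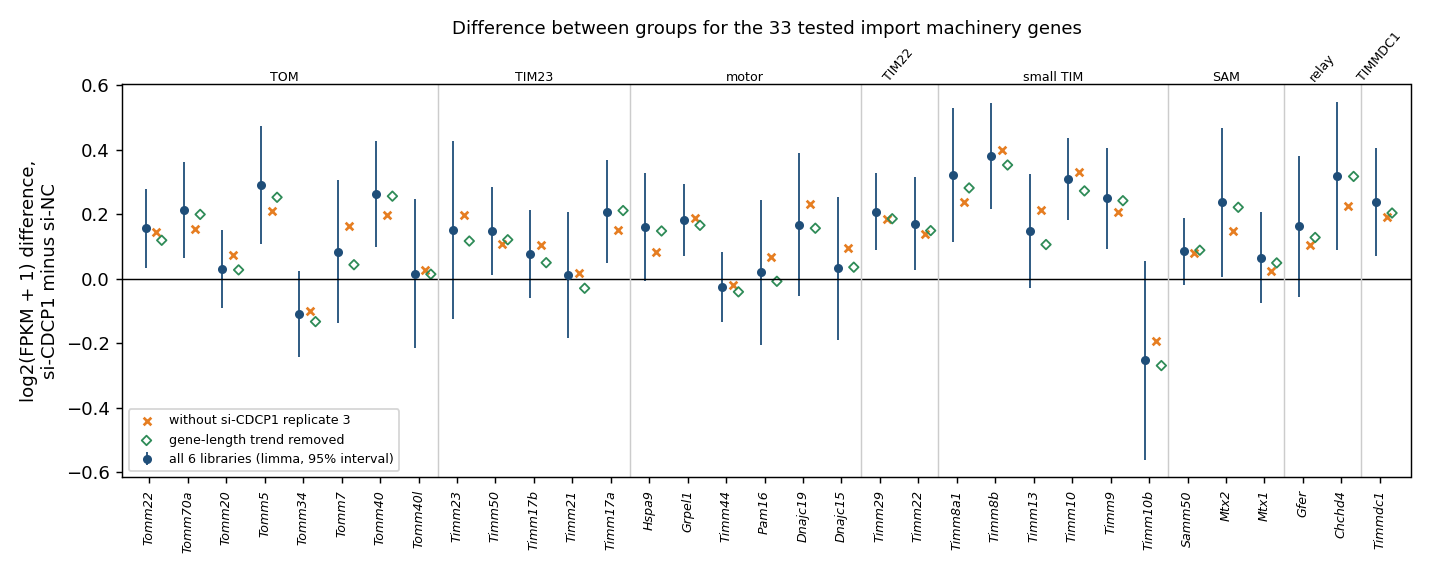
Log2(FPKM + 1) difference, si-CDCP1 minus si-NC (vertical), for the 33 tested import genes grouped by role (horizontal): points with bars are limma estimates with 95% intervals from all 6 libraries, crosses leave out si-CDCP1 replicate 3, and diamonds have each library's trend with gene length removed. Of the 33 genes 30 lie above 0 with all libraries, and Timm44, Tomm34 and Timm10b below.

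In the SAM complex and the disulfide relay, Samm50 and Chchd4 had groups that did not overlap and the other 3 genes had groups that did. Over all genes 14.4% had groups apart on the higher side. Samm50, the barrel that inserts other barrels (ENSMUSG00000022437, mm10 chromosome 15, 84192241 to 84217267, plus strand), was at 18.4, 18.7 and 18.1 FPKM in the si-NC libraries and 19.5, 19.4 and 19.7 FPKM in the si-CDCP1 libraries. Every si-CDCP1 library was above every si-NC library, but the log2 difference was only 0.085 (SE 0.044), with a 95% interval of -0.019 to 0.19. Its partners, the metaxins, averaged 6.69 ± 0.138 against 7.06 ± 0.426 FPKM for Mtx1 and 11.1 ± 0.790 against 13.3 ± 1.76 FPKM for Mtx2 (SD, n = 3 each), and both overlapped between the groups. The difference of Mtx2, 0.24, had its highest library in si-CDCP1 replicate 3 and was 0.15 without it, and that of Mtx1 went from 0.065 to 0.022.

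Chchd4, the oxidoreductase MIA40 that receives cysteine-rich precursors (ENSMUSG00000034203, mm10 chromosome 6, 91462172 to 91473546, minus strand), was at 6.95, 6.67 and 6.96 FPKM in the si-NC libraries and 8.83, 7.57 and 10.2 FPKM in the si-CDCP1 libraries. Its si-NC libraries lay within 0.284 FPKM of each other and below all si-CDCP1 libraries, among which replicate 3 was highest; the log2 difference of 0.32 (SE 0.097) went to 0.22 without it (limma BH-adjusted p = 0.289 with all libraries). Gfer, the sulfhydryl oxidase that reoxidises MIA40 (ENSMUSG00000040888, mm10 chromosome 17, 24693191 to 24696156, minus strand), was at 23.8, 18.9 and 21.6 FPKM in the si-NC libraries and 23.4, 22.7 and 26.1 FPKM in the si-CDCP1 libraries. Here si-NC replicate 1 exceeded si-CDCP1 replicates 1 and 2, and the log2 difference of 0.16 (SE 0.092) had a 95% interval of -0.056 to 0.38. Its highest library was si-CDCP1 replicate 3, and without it the difference was 0.11. Timmdc1, which shares the fold of the TIM channel subunits but is known as an assembly factor of respiratory complex I (ENSMUSG00000002846, mm10 chromosome 16, 38498347 to 38522663, minus strand), was at 8.54, 9.18 and 8.75 FPKM in the si-NC libraries and 9.62, 10.8 and 11.4 FPKM in the si-CDCP1 libraries. The groups did not overlap, and the log2 difference was 0.24 (SE 0.070).

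Balance between paralogs overlapped between the groups in each of 5 pairs. As a share of the summed FPKM of the pair, Timm17a made up 39.1% ± 1.11 of Timm17a and Timm17b in si-NC and 41.7% ± 2.81 in si-CDCP1 (SD, n = 3 each). The spread in si-CDCP1 came mostly from replicate 3, at 44.9%. Timm8a1 made up 51.0% ± 0.796 and 49.98% ± 3.70 of Timm8a1 and Timm8b, and ranged from 46.2% to 53.6% among the si-CDCP1 libraries. Tomm40 was 88.2% ± 1.21 and 89.9% ± 1.09 of its pair with Tomm40l, Dnajc15 41.9% ± 3.74 and 39.2% ± 3.47 of its pair with Dnajc19, and Mtx1 37.7% ± 1.45 and 34.8% ± 2.13 of its pair with Mtx2. These shares are descriptions and were not tested.

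Several import genes share sequence with other rows of the table or overlap other genes. The descriptions in the deposited table assign the protein of 18 of the 36 members to 42 further rows, 37 of them pseudogenes, of which 25 had no read and 7 reached 1 FPKM. The most expressed was Gm14494, a processed pseudogene of Tomm20, at 43.0, 41.7 and 44.9 FPKM in the si-NC libraries and 45.1, 47.5 and 57.5 FPKM in the si-CDCP1 libraries. It thus had about the FPKM of Tomm20 itself and, unlike Tomm20, its highest value in si-CDCP1 replicate 3. FPKM is per length, and Gm14494 had 296 to 390 reads per library against 3259 to 4403 for Tomm20. Dnajc19-ps, a pseudogene of Dnajc19, was at 4.11, 3.32 and 3.66 FPKM in the si-NC libraries and 5.10, 6.82 and 4.20 FPKM in the si-CDCP1 libraries. Its FPKM was above that of Dnajc19 in 5 of the 6 libraries, on 19 to 39 reads per library against 237 to 337 for Dnajc19. Gm9803, a row with the protein of Pam16, averaged 1.89 FPKM over the 6 libraries, Gm8069, a pseudogene of Tomm5, 2.96, Gm9797, one of Timm8a1, 2.08, and Gm10171, one of Timm23, 1.75. Gm9803, Gm8069, Gm9797 and Gm10171 had 1 to 28 reads per library, against 266 to 1313 for Pam16, Tomm5, Timm8a1 and Timm23. The last of the 7, Gm43737, lies opposite Mtx1 and averaged 3.52 FPKM. How reads that match several rows were counted is not given in the sources used here, so levels of Tomm20, Dnajc19, Pam16, Tomm5, Timm8a1, Timm23 and Mtx1 are uncertain.

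Of the members, 10 overlapped an expressed protein-coding gene (averaging 1 FPKM or more), in each case on the opposite strand. The widest overlaps were those of Dnajc19 with Fxr1 (14303 bases), Mtx1 with Thbs3 (11658 bases) and Pam16 with Glis2 (8461 bases). Timm8b, Timm29 and Grpel1 overlapped a neighbour by 81, 107 and 411 bases. Tomm34 overlapped Stk4 by 848 bases, with Stk4 averaging 21.7 FPKM against 17.4 FPKM for Tomm34. Timm10b overlapped Arfip2 by 361 bases, with Arfip2 averaging 14.9 FPKM against 1.28 FPKM for Timm10b. These overlaps run between gene starts and ends, introns included, and the overlap of exons was not computed. Without a stated strand setting, reads that fall on exons of both genes cannot be told apart. Tomm6, with at most 4 reads, overlapped the same-strand gene Gm21981 over 1648 bases, and Timm10b the same-strand Gm45799 over 3086 bases, both of which were near 0 as well (0.0242 and 0.0268 FPKM). How reads in these same-strand stretches were counted is not given in the sources used here. The levels of Tomm6 and Timm10b are therefore uncertain too. Tomm20l and Timm9 overlapped on opposite strands by 49 bases.

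Gene length moved with the deviations most in si-CDCP1 replicate 1. The tested import genes had a median length of 3183 bases in the table, against 3980.5 over all genes tested, and in si-CDCP1 replicate 1 the deviations of all tested genes had a rank correlation of -0.31 with length, against -0.044 to 0.090 in the other 5 libraries. Across the 33 import genes the rank correlation between length and log2 difference was -0.14 (a description, since the genes share the same libraries). The 11 members under 2 kb had a median difference of 0.16 and the 22 longer ones 0.15, against 0.022 and 0.0045 for all genes of those lengths. Without si-CDCP1 replicate 3 the rank correlation was -0.29 over the members. Over all tested genes it went from -0.066 to -0.19. The shorter and longer members then had medians of 0.20 and 0.11, against 0.048 and -0.00038 for all genes of those lengths. With each library's length trend removed, the median of the 33 was 0.13, 28 of 33 were positive (49.0% of all genes), and 13 had an unadjusted p under 0.05 on the higher side, where 7.68% of all genes did.

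**Figure D4:**
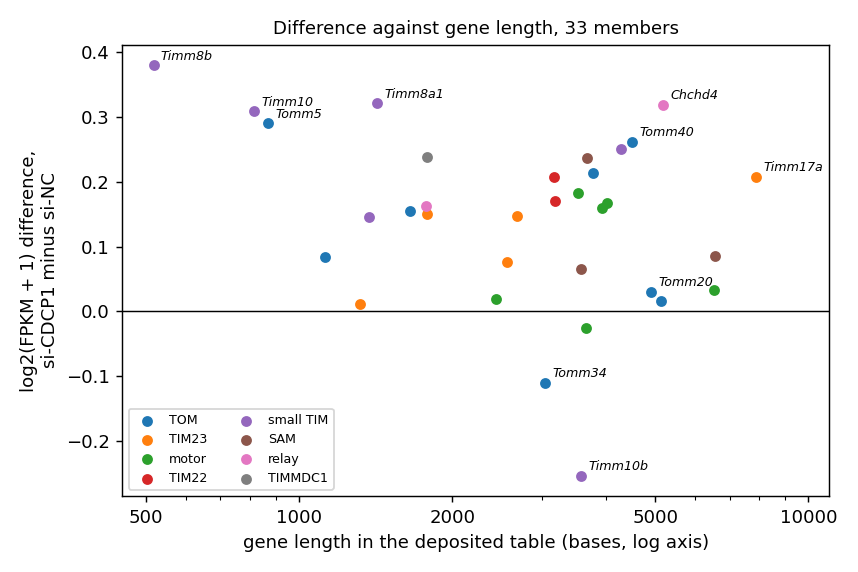
Log2(FPKM + 1) difference, si-CDCP1 minus si-NC (vertical), against gene length in the deposited table (horizontal, log axis) for the 33 tested import genes, coloured by role. Positive differences occur at all lengths. The rank correlation over the 33 points is -0.14, and it was -0.29 without si-CDCP1 replicate 3.

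The smallest differences turned with the scaling of the libraries. The FPKM as deposited had a larger sum in si-CDCP1 (286916 to 294678) than in si-NC (280056 to 282051), and when each library was brought to the same sum 25 of 33 import genes had positive differences, where 38.3% of all genes did, with a median of 0.11. An unadjusted p under 0.05 was then reached by 12 of them on the higher side (4.44% of all genes) and by 1, Tomm34, on the lower side (10.8%). Over all genes that scaling moved the split from 1080 higher and 642 lower to 537 higher and 1301 lower. The sign of Tomm20, Timm21, Pam16, Dnajc15 and Tomm40l turned with it, whereas Timm10, Timm8b and Timm8a1 kept differences of 0.26, 0.33 and 0.27.

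Other genes that act on imported proteins were described in the same way, the matrix chaperones among them. Over 6 lists, 48 of 50 genes were found and 47 tested; 35 had positive differences (median 0.080) where 52.3% of all genes did, and 0 passed over all genes in limma. An unadjusted p under 0.05 was reached by 10 on the higher and 1 on the lower side, against 8.94% and 5.31% of all genes. With library weights 6 of the 47 rose and 0 fell, against 4.62% and 2.54%. Of 7 matrix chaperones and proteases 6 had groups that did not overlap on the higher side, as 14.4% of all genes did, and the median difference was 0.15. Hspd1, the chaperonin that folds imported proteins, averaged 239.7 ± 3.81 against 287 ± 21.9 FPKM and its co-chaperonin Hspe1 91.2 ± 2.39 against 105 ± 5.03 FPKM (SD, n = 3 each). Their log2 differences were 0.26 (SE 0.063) and 0.20 (SE 0.052), and both rose with library weights.

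Of 9 genes of inner membrane quality control 7 were positive (median 0.11), with the rhomboid protease gene Parl, which cleaves PINK1, at 12.7 ± 0.484 against 15.3 ± 1.10 FPKM and the scaffold gene Stoml2 at 22.2 ± 0.227 against 25.8 ± 2.27 FPKM. Of 6 genes of MICOS, the complex that shapes cristae and contacts SAM, 5 were positive (median 0.12), with Chchd3 at 32.1 ± 1.03 against 36.6 ± 0.618 FPKM and Minos1 at 16.8 ± 1.26 against 18.4 ± 1.06 FPKM. Of 9 cysteine-rich proteins that the relay imports 7 had positive and 2 negative differences (median 0.059), with Chchd2 at 66.7 ± 2.70 against 75.8 ± 4.59 FPKM and Chchd1 at 26.5 ± 1.55 against 29.0 ± 0.491 FPKM. The difference farthest from 0 in that list was on the lower side, that of the copper chaperone gene Cox17 at -0.26 (SE 0.12), with levels of 2.07 ± 0.398 against 1.54 ± 0.114 FPKM and groups that overlapped. Accessory import proteins had a median of 0.049 over 10 genes and no gene with an unadjusted p under 0.05, with Mtch2, an outer membrane insertase, at 15.4 ± 0.852 against 16.6 ± 0.189 FPKM and Aifm1, which anchors MIA40, at 20.5 ± 0.426 against 21.6 ± 0.235 FPKM.

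The presequence processing genes had a median of 0.025 over 6 genes, with 1 gene at an unadjusted p under 0.05 on either side. Over all genes 8.94% had such a p on the higher and 5.31% on the lower side. Pmpca, a subunit of the peptidase that removes presequences, averaged 31.7 ± 1.26 against 35.3 ± 1.78 FPKM (SD, n = 3 each) and was higher in every si-CDCP1 library, with a log2 difference of 0.15 (SE 0.057). Immp1l, a peptidase of the inner membrane, averaged 24.3 ± 0.350 against 20.0 ± 2.67 FPKM and was lower in every si-CDCP1 library, with a log2 difference of -0.28 (SE 0.088). Neither passed in limma over all genes.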

How the data were processed

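RNA sequencing libraries of 6 cultures (3 si-NC, 3 si-CDCP1) were analysed from 1 table of FPKM per gene that the authors deposited; per the file headers it also gives each gene's length, type, position and description. The build is mm10, per the submitters' processing notes, and the libraries were made with a SMARTER mRNA-Seq kit, per the labels' protocols. Which aligner, counting tool and strand setting were used is not given in the sources used here. FPKM times gene length was a whole multiple of 1 step per library in 100% of values (within 0.01 of a whole read), which gave back reads. The total implied by the step of a library was not the sum of its reads. That sum came to 98.4% of it in each si-NC library and to 99.90%, 99.85% and 104% in si-CDCP1 replicates 1, 2 and 3. The deposited FPKM and voom on the recovered reads both rest on the implied totals, so both carry this difference between the groups. Its part in the results was not tested.

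Groups were compared on log2(FPKM + 1) with limma 3.58.1 (R 4.3.3), with an intensity trend, two-sided, and with p-values BH-adjusted over the 12080 genes that averaged 1 FPKM or more, at a threshold of 0.05. Other values were computed in Python 3.11.15. The fit was also run on simulated data with changes larger than the median difference of the import genes, so that check does not cover differences of that size. The labels call the cultures primary and do not tie a replicate to its own animal or culture, so the p-values speak of the scatter of these 6 libraries, which could be technical. No 2 libraries were duplicates (chi-square per degree of freedom at least 2.86). The members and lists were chosen with earlier results of these data known. Values in every library are given for 14 core subunits, the 8 other members with the smallest p and the members with the highest and lowest level; of each other list the 2 genes with the smallest p are named. Pseudogenes, overlapping genes and genes behind small counts were singled out after their values were seen. Alternatives were pseudocounts of 0.1 and 0.01, other filters and scalings, a fit without the trend, library weights, a replicate block, subtraction of a lowess curve on gene length from each library (span 0.3), protein-coding genes alone, limma voom on recovered reads (at least 10 in 3 libraries) and each library left out. Tested members had 51 to 32711 reads per library; statements about reads cover counting error only.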

Additional observations from a re-analysis of the deposited data

How the results depend on the processing

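Of 689 single-gene values under the 21 other settings, 658 kept their direction and their side of the threshold, 11 passed the threshold (9 with library weights, 2 with voom without si-CDCP1 replicate 3) and 20, in 5 genes, changed sign; the cause was not tested. Over all genes, where limma called 0, the count was 7 without a filter, 4 at a mean of at least 5 FPKM, 1 with equal FPKM sums, 2 with quantile normalisation, 865 with library weights, 3 with the length trend removed (9 without si-CDCP1 replicate 3 as well), 2 for protein-coding genes, 5 with voom and 493 with voom without si-CDCP1 replicate 3; leaving out 1 library gave 0 to 1 (1 without si-NC replicate 2 or 3). Import members called were 9 with library weights, 2 with voom without si-CDCP1 replicate 3 and 0 in every other setting. Their median difference, 0.16, was 0.11 with equal FPKM sums, 0.10 with quantile normalisation, 0.12 with library weights, 0.13 with the length trend removed, 0.11 with that and without si-CDCP1 replicate 3, and between 0.14 and 0.20 with 1 library left out (0.20 without si-CDCP1 replicate 2).

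With the replicate number as a replicate block, 1 gene was called over all genes and 0 members, and with the length trend removed as well 1 gene, with a member median of 0.13. Same-numbered libraries did not deviate together (correlations -0.020, 0.026 and 0.022), so the numbers were not taken as pairs.

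Signs turned as follows. With equal FPKM sums the differences were -0.023 for Tomm20, -0.038 for Timm21, -0.029 for Pam16, -0.0067 for Dnajc15 and -0.016 for Tomm40l, and with quantile normalisation that of Tomm20 was -0.033. With the length trend removed Timm21 was at -0.030 and Pam16 at -0.0083, the same with the block, and Timm21 at -0.047 without si-CDCP1 replicate 3 as well. With 1 library left out the lowest and highest values were -0.060 and 0.077 for Timm21, -0.055 and 0.11 for Pam16, -0.033 and 0.094 for Dnajc15, and -0.017 and 0.079 for Tomm40l. At 51 to 102 reads per library, Timm10b is the tested member that rests on the fewest reads. Its overlaps with Gm45799 and Arfip2 make its level uncertain as well.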

Other observations

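The Tomm5 pseudogene Gm8069, which was not part of the import machinery as chosen, was at 3.88, 5.18 and 3.27 FPKM in the si-NC libraries and 2.25, 2.79 and 0.416 FPKM in the si-CDCP1 libraries, on the opposite side from Tomm5. It rests on few reads in a gene of 154 bases, and limma gave it a log2 difference of -0.96 with an unadjusted p of 0.0314 and a BH-adjusted p of 0.323. Without si-CDCP1 replicate 3, which had 1 read, the difference was -0.52, and with library weights it was -0.45. It was singled out after its values were seen.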
